A study of Rattus norvegicus with 13 samples.

Results

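Expression of 10 genes of the TSH receptor and cAMP pathway was examined in rat thyroid: the receptor Tshr, the G protein subunits Gnas and Gnaq, the adenylate cyclases Adcy3, Adcy6 and Adcy9, the protein kinase A subunits Prkar1a and Prkaca, and the phosphodiesterases Pde4d and Pde8b. Every gene probe carrying one of these names on the array was kept, which gave 22 probes of 45598 in all. Of these, 20 probes, covering the 10 genes, were among the 25717 probes tested. The remaining probes were 1 of Pde4d, well above background on 5 of the 13 arrays, and 1 of Pde8b, well above background on none.

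The animals were male Wistar offspring whose mothers had been given, by gavage during pregnancy, either potassium iodide (KI) at 1 mg/kg/day or 0.9% saline. Dosing lasted 8 days from gestational day 9, until day 16 by the methods or day 17 by the introduction, and the thyroids were taken 30 days after weaning. The KI-treated group had 6 arrays and the control group 7, with 1 one-colour array of Cy3-labelled RNA per thyroid. Litters were not named in the sources used here, and each animal was taken as independent of the others. The comparison asks whether exposure before birth left a difference in the thyroid of the young animal.

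TSH from the pituitary binds its receptor on the follicular cell, and the receptor activates the stimulatory G protein, whose alpha subunit switches on adenylate cyclase. The cAMP that is made releases the catalytic subunits of protein kinase A from their regulatory subunits, and phosphodiesterases break cAMP down again. This route drives thyroid growth and the genes for hormone synthesis, while a second route through the Gq protein reaches phospholipase C. In a whole gland, fewer cells of a type and less RNA per cell cannot be told apart.

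A level is given throughout as the log2 signal of a probe minus the 75th percentile of its array, so that 0 is the 75th percentile and each unit is a doubling. A log2 fold change is the mean of the KI-treated group minus that of the control group. On each array 34840 to 41050 of the 58717 spots for genes gave a signal well above background, and none was saturated. Of 7 follicular cell markers, 6, among them Tg and Pax8, were well above background on all 13 arrays, and the iodide transporter Slc26a4 was above it on none. Control 4 and control 6 stood apart. Their 75th percentiles were 8.18 and 7.92 on the log2 scale, against 8.48 to 9.10 on the other arrays, and their mean correlations with the other arrays were 0.963 and 0.973, against at least 0.980. Both were scanned in session 1, on slides 1 and 2, each beside 1 KI-treated array. The summed parathyroid, endothelial, erythroid and follicular marker levels were highest in these 2 animals, and the C cell sum was lowest. Signals were summed before taking log2, so each sum mostly follows its brightest marker. Not every marker followed its sum. Duox2, Hbb and Alas2 were highest in KI 2, Gcm2 in KI 1 and Cdh5 in control 1, and the others of the raised lists in control 4 or 6. The C cell marker Scg2 was highest in control 6. The sum of the 3 parathyroid markers, 2 of them well above background on all arrays, was 8.41 to 8.84 in the KI-treated group and 8.63 to 9.38 in the control group. Their part in the results was not tested, and the fold changes they move most are also given without them.

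After Benjamini-Hochberg adjustment, 0 of the 20 probes passed 0.05 in limma, as for all probes tested (0 of 25717, or 0%). Their adjusted p-values ran from 0.358 to 0.988. Before adjustment, 4 of the 20 had p under 0.05, with 1 above and 3 below the controls, beside 12.7% of all probes tested, 5.71% higher and 7.01% lower. The 4 were 2 probes of Gnas and 1 of Pde4d, all lower, and 1 of Adcy6, higher. The median log2 fold change was -0.04 over the 20 probes and -0.08 over all probes tested. Without controls 4 and 6, 2 of the 20 had an unadjusted p under 0.05, 1 of Gnas and 1 of Pde4d, beside 9.38% of all 25650 probes with complete values.

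**Figure D1:**
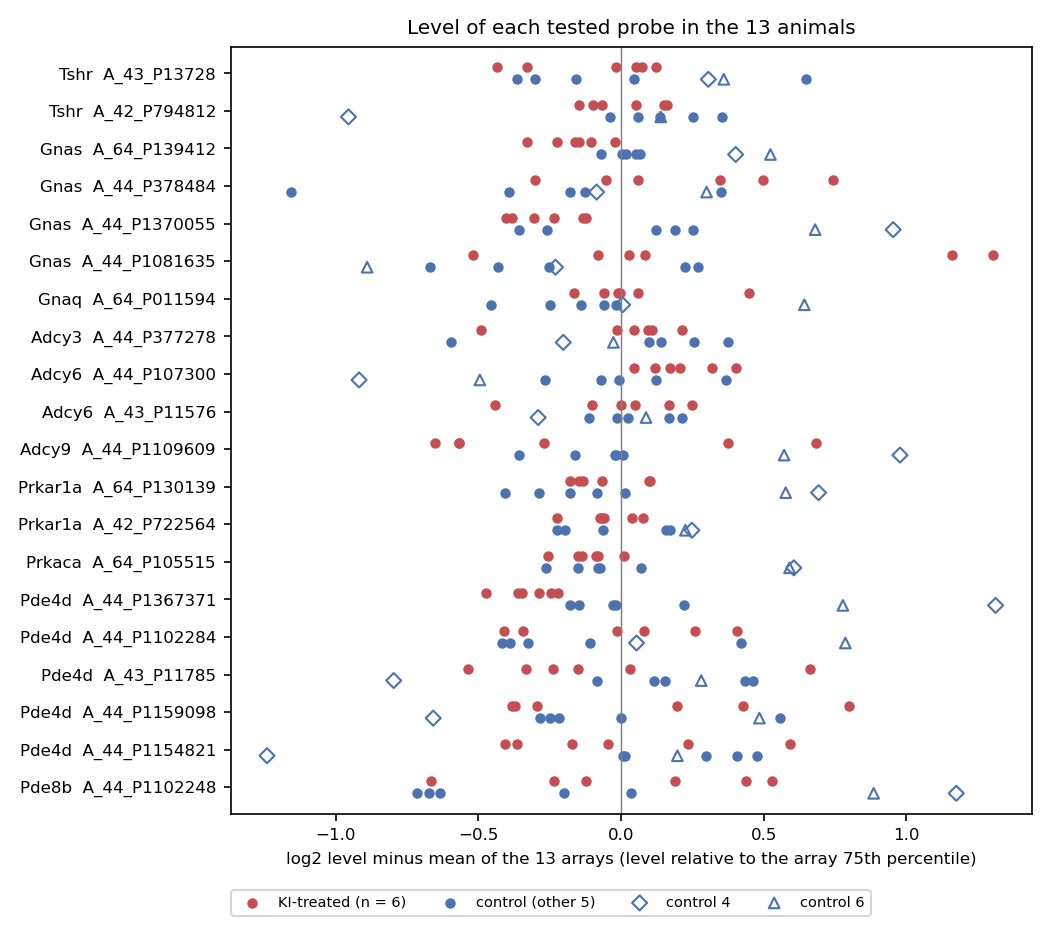
Level of each tested probe in the 13 animals (log2 units, x axis) as the difference from the mean of the 13 arrays, with KI-treated animals in red and controls in blue, 1 row per probe. Controls 4 and 6, drawn as open symbols, lie at the right end of the rows of Gnas A_64_P139412 and A_44_P1370055, Prkar1a, Prkaca, Pde4d A_44_P1367371 and Pde8b, and at the left end of the row of Adcy6 A_44_P107300.

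The receptor was well above background in every animal with both of its probes. Tshr A_43_P13728 lay at 2.22 to 2.78 in the KI-treated group (median 2.67) and at 2.29 to 3.30 in the control group (median 2.70). Tshr A_42_P794812 lay at 0.13 to 0.43 in the KI-treated group (median 0.27) and at -0.68 to 0.63 in the control group (median 0.41). With both probes the KI-treated range fell inside or close to that of the controls, and the lowest control on the second probe was control 4. The log2 fold change of A_43_P13728 was -0.17 (95% interval -0.54 to 0.21, adjusted p = 0.624 in limma). That of A_42_P794812 was 0.02 (95% interval -0.37 to 0.40, adjusted p = 0.962 in limma). Without controls 4 and 6 the values were -0.06 and -0.14.

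No correlation between the Tshr probes passed the threshold. After subtraction of the group means, their levels had a Pearson r of -0.24 over the 13 animals (adjusted p = 0.645 over 19 probe pairs, 100000 permutations within groups) and a Spearman rho of -0.26 (adjusted p = 0.565). They lie far apart in the gene. Per the file headers the coordinates are of build rn4, in which A_43_P13728 covers chromosome 6, 115024931 to 115024990, and A_42_P794812 covers chromosome 6, 115161509 to 115161568, both on the plus strand. The array assigns the first to a predicted transcript that is not in the RefSeq table of GRCr8 used here and the second to the reference transcript. Their base composition also differs, with 60% G and C in the first and 36.7% in the second, as the first 30 of their 60 bases show.
Tshr A_43_P13728: tccttcctccctttccctccggcatcccgg
Tshr A_42_P794812: acatctggacagataaaatatttcatctcg

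Gnas, which encodes the stimulatory alpha subunit, is an imprinted locus that makes several proteins from alternative first exons. Besides the alpha subunit these are its long form XLas and the secretory protein Nesp55. Its 4 probes are assigned by the array to different transcripts of the locus. A_64_P139412 belongs to the transcript of the reference alpha subunit, A_44_P1370055 to transcript variant 1, and A_44_P1081635 and A_44_P378484 to transcript variant 5. The sequences of A_44_P1370055 and A_44_P1081635 are shown whole and the others by their first 30 bases, since the probes behaved differently. Capitals mark the repeated unit gagacc.
Gnas A_64_P139412: ggccacaaaagttccctctcactttcagta
Gnas A_44_P1370055: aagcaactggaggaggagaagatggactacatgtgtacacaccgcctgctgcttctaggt
Gnas A_44_P1081635: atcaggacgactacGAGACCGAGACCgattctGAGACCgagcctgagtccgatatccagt
Gnas A_44_P378484: aacagcaatcagaaaacgcatcgatatctt
In the rn4 coordinates A_44_P1081635 covers chromosome 3, 165214058 to 165214117, on the plus strand, and A_44_P1370055 covers the unplaced sequence 3_random, 1601894 to 1601953, on the minus strand.

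The alpha subunit probe A_64_P139412 had the smallest residual standard deviation of the 4 Gnas probes. It lay at 7.44 to 7.75 in the KI-treated group (median 7.62) and at 7.70 to 8.30 in the control group (median 7.83). All 6 KI-treated animals were below the control median, and the ranges overlapped through KI 5 and control 5. The log2 fold change was -0.31 (95% interval -0.56 to -0.05, adjusted p = 0.367 in limma, exact permutation p = 0.00291 for this probe alone, two-sided). Controls 6 and 4 were the 2 highest animals. Without them the log2 fold change was -0.18 (95% interval -0.35 to -0.01, adjusted p = 0.501 in limma), and with quantile normalization of all 13 arrays it was -0.06 (95% interval -0.22 to 0.10, adjusted p = 0.743 in limma). Within the 5 slides that held both groups the difference was negative on each, from -0.67 on slide 2 and -0.63 on slide 1, which hold controls 6 and 4, to -0.03 on slide 4.

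The other Gnas probes differed in direction. A_44_P1370055 lay at -0.87 to -0.59 in the KI-treated group (median -0.73) and at -0.82 to 0.49 in the control group (median -0.27), with controls 4 and 6 again the highest. Its log2 fold change was -0.49 (95% interval -0.90 to -0.08, adjusted p = 0.369 in limma, exact permutation p = 0.0256), and -0.25 (95% interval -0.53 to 0.02) without controls 4 and 6. Slides 1 and 2 gave -1.08 and -0.92, against -0.53 to 0.09 on the others that held both groups. The variant 5 probes had positive fold changes. A_44_P378484 lay at 1.86 to 2.91 in the KI-treated group (median 2.36) and at 1.0 to 2.51 in the control group (median 2.04). Its log2 fold change was 0.40 (95% interval -0.10 to 0.90, adjusted p = 0.443 in limma). A_44_P1081635 lay at -3.35 to -1.53 in the KI-treated group (median -2.77) and at -3.72 to -2.56 in the control group (median -3.08), and its log2 fold change was 0.61 (95% interval -0.02 to 1.25, adjusted p = 0.399 in limma). With normexp background correction it was 0.18 at the 75th percentile and 0.32 with quantiles, and with array weights it was 0.36. The value of 0.61 leans on KI 1 and KI 2, at -1.67 and -1.53, while the other 4 KI-treated animals, at -3.35 to -2.75, were within the control range. With group means alone subtracted, none of the 6 pairs of Gnas probes was correlated after adjustment. The highest Pearson r was 0.64, between A_64_P139412 and A_44_P1370055 (adjusted p = 0.191, 100000 permutations), and it was 0.11 without controls 4 and 6. With slide means subtracted as well, the r of this pair was 0.83 and passed the threshold (adjusted p = 0.0135, permutation test). With quantile normalization it was -0.30.

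Gnaq, the alpha subunit that couples the receptor to phospholipase C, gave a weak signal, well above background on 11 arrays. Its level was -3.54 to -2.93 in the KI-treated group (median -3.38) and -3.83 to -2.74 in the control group (median -3.44). The groups overlapped over most of this range, with a log2 fold change of 0.08 (95% interval -0.26 to 0.43, adjusted p = 0.782 in limma). Control 6 was the highest animal and KI 3 the next, and both were on slide 2. Within the slides that held both groups the difference ran from -0.19 on slide 2 to 0.35 on slide 5. Without controls 4 and 6 the value was 0.23 (95% interval -0.04 to 0.49), but that setting left KI 3 with no control on its slide.

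Among the cyclases, which make cAMP, Adcy6 was the gene with a probe past the unadjusted threshold in the fit without slide or scan session. Adcy6 A_44_P107300 lay at 2.60 to 2.96 in the KI-treated group (median 2.74) and at 1.64 to 2.92 in the control group (median 2.48). All 6 KI-treated animals exceeded the control median, and the 2 lowest animals were controls 4 and 6. The log2 fold change was 0.39 (95% interval 0.01 to 0.77, adjusted p = 0.388 in limma, exact permutation p = 0.0443), and it was 0.18 (95% interval -0.07 to 0.43) without controls 4 and 6. Slide 1 gave 1.32 and slide 2 gave 0.62, against -0.05 to 0.18 on the other 3 slides with both groups. The second probe, A_43_P11576, is assigned to the same transcript and had a log2 fold change of -0.02 (95% interval -0.30 to 0.25, adjusted p = 0.925 in limma). The pair nevertheless varied together over the animals, with a Pearson r of 0.62 (adjusted p = 0.0286, 100000 permutations) and a Spearman rho of 0.55 (adjusted p = 0.194). Without controls 4 and 6, the 2 arrays farthest from the median, r was 0.61. With slide means subtracted as well it was 0.68 (adjusted p = 0.0467, permutation test). With quantile normalization it was 0.38 and did not pass 0.05.

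Adcy3 and Adcy9 overlapped between the groups. Adcy3 lay at -3.22 to -2.52 in the KI-treated group (median -2.66) and at -3.32 to -2.35 in the control group (median -2.63), and its log2 fold change was -0.01 (95% interval -0.36 to 0.33, adjusted p = 0.966 in limma). Adcy9 lay at 1.61 to 2.95 in the KI-treated group (median 1.85) and at 1.91 to 3.24 in the control group (median 2.25). It was high in KI 2 and KI 3, at 2.95 and 2.64, and in controls 4 and 6, at 3.24 and 2.84, the 4 animals of scan session 1. All other animals were between 1.61 and 2.27. The log2 fold change of Adcy9 was -0.31 (95% interval -0.87 to 0.25, adjusted p = 0.550 in limma). Without controls 4 and 6 it was -0.06, but that setting left KI 2 and KI 3 with no control of scan session 1. Within scan sessions 1, 2 and 3 the difference was -0.25, -0.28 and -0.59, the last with 1 KI-treated array. Within the slides that held both groups it ran from -0.56 on slide 5 to 0.09 on slide 4. A further probe is described on the array as Adcy9 but named by an Ensembl transcript, so it was not a member. Its log2 fold change was 0.38 (95% interval -0.34 to 1.09).

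Both protein kinase A genes overlapped between the groups. Prkaca, the catalytic subunit, lay at 4.80 to 5.06 in the KI-treated group (median 4.94) and at 4.79 to 5.66 in the control group (median 4.98). Controls 4 and 6, at 5.66 and 5.65, were above every other animal, the highest of which was at 5.13. The log2 fold change of Prkaca was -0.22 (95% interval -0.54 to 0.11, adjusted p = 0.498 in limma) and was -0.02 (95% interval -0.20 to 0.16) without them.

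Prkar1a, the regulatory subunit that holds the kinase inactive, had 2 probes with the same log2 fold change of -0.10 (95% interval -0.48 to 0.28 for A_64_P130139 and -0.34 to 0.14 for A_42_P722564). They parted without controls 4 and 6, at 0.13 (95% interval -0.08 to 0.35) and -0.02 (95% interval -0.24 to 0.20), and with quantile normalization they were 0.0019 and -0.0037. A_64_P130139 lay at 4.06 to 4.34 in the KI-treated group (median 4.14) and at 3.83 to 4.93 in the control group (median 4.15). A_42_P722564 lay at 3.37 to 3.68 in the KI-treated group (median 3.54) and at 3.37 to 3.85 in the control group (median 3.76). The groups overlapped with both probes, and controls 4 and 6 were the highest animals of both. The residual standard deviation of A_42_P722564, 0.165, was at percentile 7.07 of all probes tested. The Pearson r of the pair was 0.54 (adjusted p = 0.334, 100000 permutations) and fell to 0.18 without controls 4 and 6. With slide means subtracted as well, r was 0.84 (adjusted p = 0.0112, permutation test), and with quantile normalization it was -0.22. The array places A_64_P130139 on chromosome X, 148642221 to 148642280, minus strand, and A_42_P722564 on chromosome 10, 99108658 to 99108717, plus strand, in rn4, although both carry the name Prkar1a. A near-identical copy of the gene could share the signal of the former, so its level is uncertain. The first 30 bases of each are given to tell them apart.
Prkar1a A_64_P130139: tatactaaaggttgctttattgcaccattt
Prkar1a A_42_P722564: agctgccttgttgccatatctaaaacttcc

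Pde4d, which hydrolyses cAMP and is known for its many isoforms with different amino termini, had 6 probes. One of them, A_44_P1367371, was the only member probe whose groups did not overlap, beside 0.581% of the 25650 complete probes on the array. Its level was 5.80 to 6.06 in the KI-treated group (median 5.96) and 6.10 to 7.59 in the control group (median 6.26). Controls 4 and 6 were the highest, at 7.59 and 7.06, and the other 5 controls were at 6.10 to 6.50. The log2 fold change was -0.60 (95% interval -1.07 to -0.13, adjusted p = 0.358 in limma, exact permutation p = 0.00466). Without controls 4 and 6 it was -0.29 (95% interval -0.49 to -0.09, adjusted p = 0.398 in limma) and the groups still did not overlap. With quantile normalization it was -0.44 (95% interval -0.79 to -0.10, adjusted p = 0.350 in limma) and the groups overlapped. The difference was -1.67 on slide 1 and -1.25 on slide 2, and -0.11 to -0.32 on the other 3 slides that held both groups.

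The sequence of this probe is unusual. It is 76.7% G and C, at percentile 99.9 of all gene probes, and 39 of its 60 bases, in capitals, are runs of the unit CCN. The array places it on the unplaced sequence 18_random, 264930 to 264989, in rn4, whereas the other 5 Pde4d probes lie on 2_random. A Pde4d probe assigned to the same transcript is shown for comparison, with 45% G and C.
Pde4d A_44_P1367371: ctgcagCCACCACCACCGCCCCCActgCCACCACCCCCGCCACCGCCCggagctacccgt
Pde4d A_44_P1154821: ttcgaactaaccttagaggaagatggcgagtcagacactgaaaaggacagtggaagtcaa
Probes of this base composition had lower values in the KI-treated group on these arrays as a class, a division made after the values had been seen. Of the 97 tested probes above 65% G and C, A_44_P1367371 among them, 55.7% had an unadjusted p under 0.05 and all of those were lower in the KI-treated group. The median log2 fold change of the 97 was -0.41, or -0.26 without controls 4 and 6 and -0.36 with quantile normalization. The 261 probes of 55 to 65% G and C, Tshr A_43_P13728 among them, had a median of -0.20. The largest class, the 14419 probes of 35 to 45% G and C, had a median of -0.06. The classes of 45 to 55% and of 35% or less had medians of -0.03 and -0.12. The part of base composition in the Pde4d and Tshr values was not tested.

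The groups overlapped with the other Pde4d probes. A_44_P1102284 lay at 0.82 to 1.63 in the KI-treated group (median 1.26) and at 0.81 to 2.01 in the control group (median 1.12). A_43_P11785 lay at -1.72 to -0.52 in the KI-treated group (median -1.38) and at -1.98 to -0.72 in the control group (median -1.03). A_44_P1159098 lay at -2.77 to -1.59 in the KI-treated group (median -2.44) and at -3.05 to -1.83 in the control group (median -2.61). The weaker A_44_P1154821 lay at -3.42 to -2.42 in the KI-treated group (median -3.12) and at -4.26 to -2.54 in the control group (median -2.82), and all 4 overlapped widely. Their log2 fold changes were -0.01, -0.18, 0.12 and -0.05, with 95% intervals that reached from -0.65 to 0.62 and adjusted p-values in limma of 0.677 to 0.988. The same 4 were, without controls 4 and 6, at 0.16, -0.31, 0.10 and -0.27, so that A_43_P11785 (95% interval -0.74 to 0.11) and A_44_P1154821 (95% interval -0.66 to 0.13) had values of the size of that of A_44_P1367371, with wider intervals.

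Of the 6 pairs among these 4 probes, 4 passed 0.05 after adjustment by Pearson r and 1 by Spearman rho. Pearson r was 0.80 between A_43_P11785 and A_44_P1159098 (adjusted p = 0.0118, 100000 permutations), with a Spearman rho of 0.85 (adjusted p = 0.00893). It was 0.75 between A_44_P1102284 and A_44_P1159098 (adjusted p = 0.0286, permutation test), with a rho of 0.70 (adjusted p = 0.0692). It was 0.69 between A_44_P1159098 and A_44_P1154821 (adjusted p = 0.0286, permutation test), with a rho of 0.71 (adjusted p = 0.0692). Without the 2 arrays farthest from the median these were 0.68, 0.64 and 0.58. The r of 0.79 between A_43_P11785 and A_44_P1154821 (adjusted p = 0.0488; rho 0.62, adjusted p = 0.143; permutation tests) rested on 2 arrays, control 4 and KI 1, and was 0.39 without them. The r of A_44_P1102284 was 0.38 with A_43_P11785 (adjusted p = 0.437, permutation test) and 0.22 with A_44_P1154821 (adjusted p = 0.605, permutation test). For A_44_P1367371 the r with the other 4 ran from -0.64 to 0.36, none past 0.05 after adjustment. KI 1 was the highest and control 4 the lowest animal on A_43_P11785, A_44_P1159098 and A_44_P1154821. KI 1 also had the highest summed level of the 7 lymphocyte and thymocyte markers with a probe, 3.45 against -1.75 to 1.18 in the other 12 animals, and the part of such cells in these values was not tested. Of those markers 1 was well above background on all arrays, and 1 on none.

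**Figure D2:**
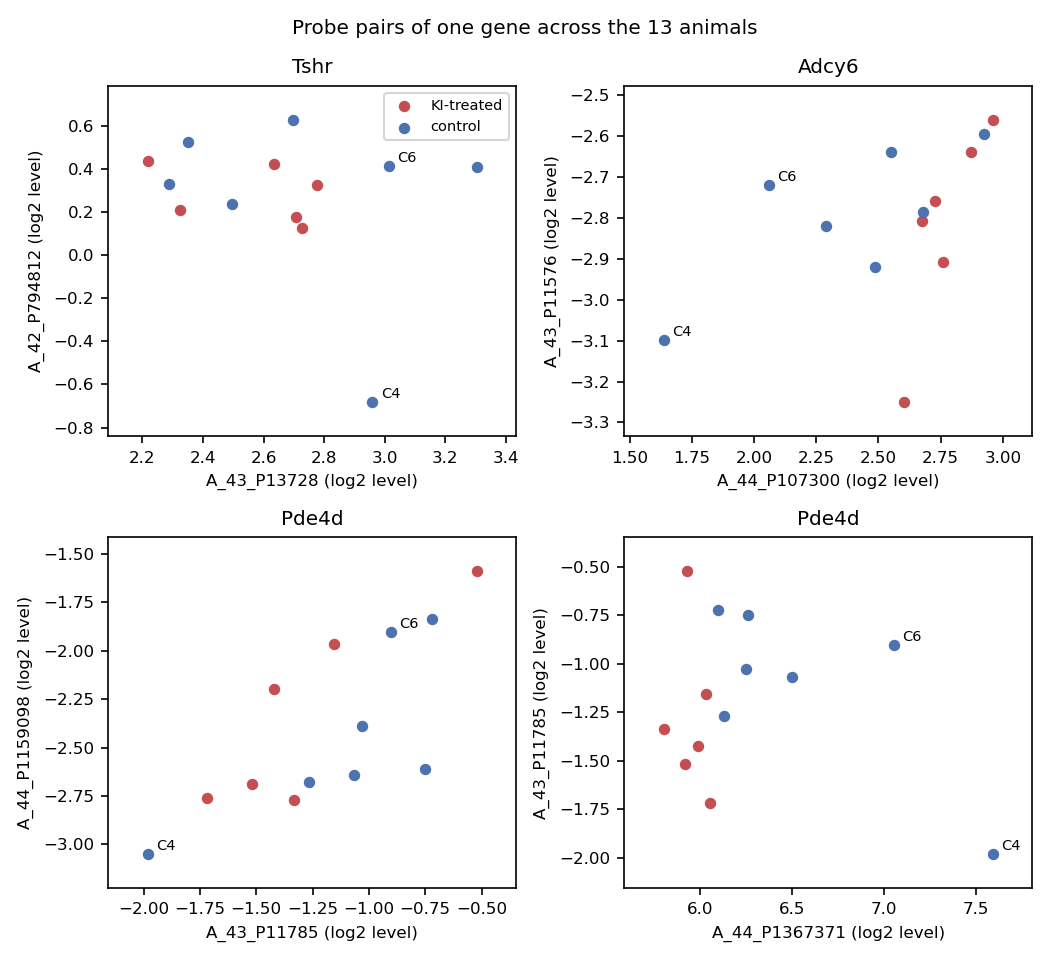
Levels of 2 probes of one gene plotted against each other (log2 relative to the array 75th percentile on both axes), 1 point per animal, KI-treated in red and control in blue, with controls 4 and 6 marked C4 and C6. The Adcy6 pair and the pair of Pde4d A_43_P11785 and A_44_P1159098 rise together (r of 0.62 and 0.80), whereas the Tshr pair (r of -0.24) and the pair with Pde4d A_44_P1367371 (r of -0.55) do not.

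Pde8b, a phosphodiesterase with high affinity for cAMP, had the largest residual standard deviation of the 20 tested probes with A_44_P1102248. A_44_P1102248 lay at -3.02 to -1.82 in the KI-treated group (median -2.32) and at -3.07 to -1.18 in the control group (median -2.55). Controls 4 and 6 were the highest, at -1.18 and -1.47. Its log2 fold change was 0.04 (95% interval -0.65 to 0.73, adjusted p = 0.950 in limma). Without controls 4 and 6 it was 0.46 (95% interval -0.03 to 0.95), but that setting left KI 2 and KI 3 with no control of scan session 1. Within scan sessions 1, 2 and 3 the difference was -0.67, 0.18 and 0.38, the last with 1 KI-treated array. The residual standard deviation of this probe, 0.646, was at percentile 90.3 of all probes tested. Pde8b A_44_P151433 was not well above background on any array. Pde4d A_44_P311334 was well above background on 3 KI-treated and 2 control arrays, with levels of -5.10 to -3.77 and -5.73 to -3.69.

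**Figure D3:**
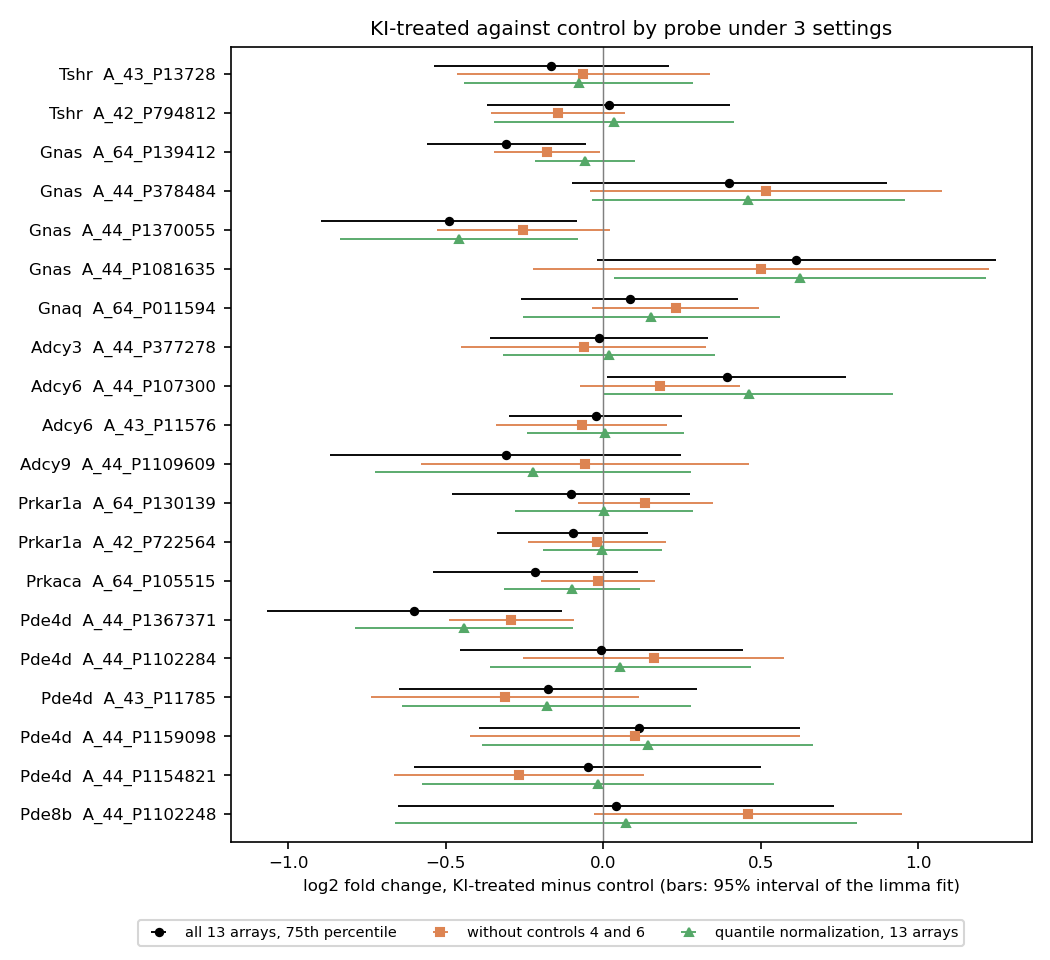
Log2 fold change of the KI-treated group against the control group (x axis, log2 units) for the 20 tested probes, with 95% intervals of the limma fit, under 3 settings. For Gnas A_64_P139412 the value moves from -0.31 with all arrays to -0.18 without controls 4 and 6 and -0.06 with quantile normalization, and for Pde4d A_44_P1367371 from -0.60 to -0.29 and -0.44.

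Controls 4 and 6 stood at one end of the range for many of these probes. They were the 2 highest animals for 7 of the 20 probes, and for 4 of the 4 probes with a mean level above 4, which belong to Gnas, Prkar1a, Prkaca and Pde4d. Over all probes with a mean level above 4, they were the 2 highest for 62% of 2087, and over all complete probes for 26.5%. The standard deviation was larger in the control group for 16 of the 20 probes (80%), close to the 78.1% over all probes. Without these 2 animals it was larger for 11 of the 20 (55%) and for 56.2% of all probes. The median residual standard deviation was 0.345 over the 20 probes and 0.309 over all probes tested.

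**Figure D4:**
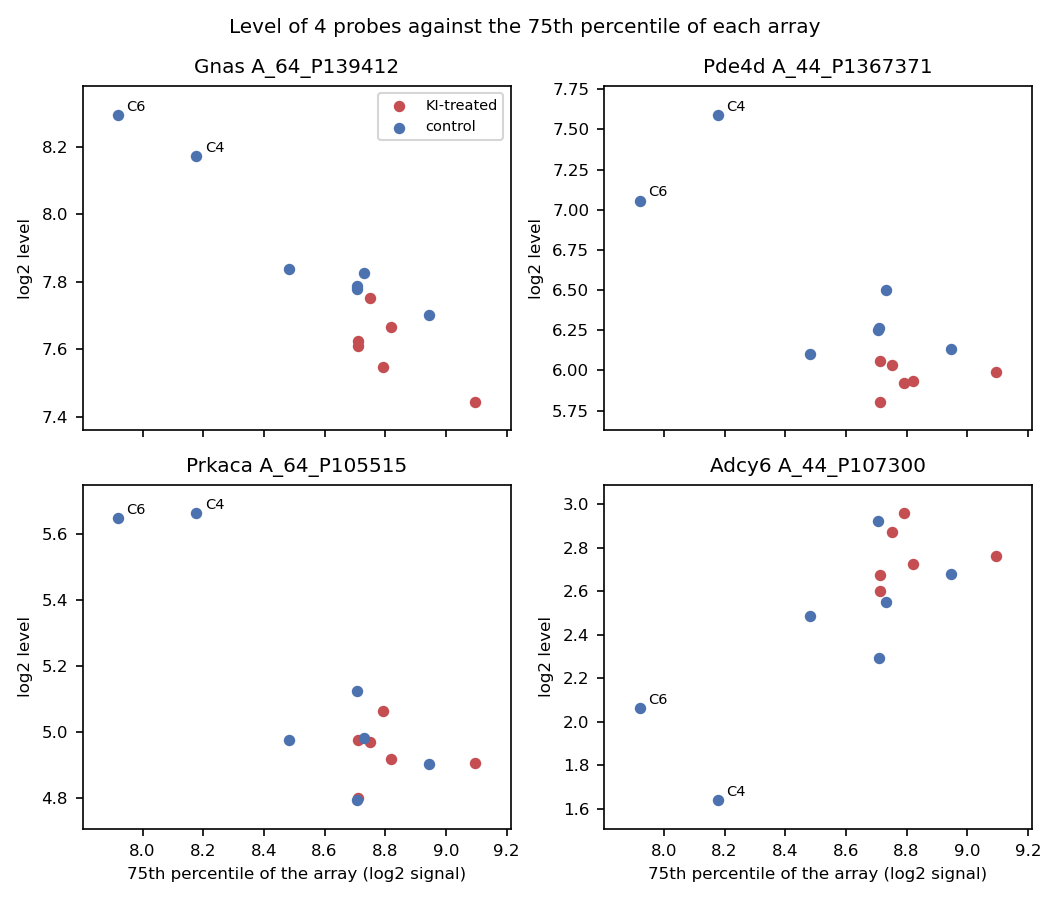
Level of 4 probes (log2 relative to the array 75th percentile, y axis) against the 75th percentile of the array (log2 signal, x axis), 1 point per animal, KI-treated in red and control in blue. Controls 4 and 6 (C4, C6), with the lowest percentiles of 8.18 and 7.92, have the highest levels of Gnas A_64_P139412, Pde4d A_44_P1367371 and Prkaca and the lowest levels of Adcy6 A_44_P107300.

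The probes most like Tshr A_43_P13728 across animals, among 20714 gene-named probes above background on all arrays, belonged to LOC100911193 (Pearson r 0.96), Scamp5 (0.95), LOC103690480 (0.94), Dapl1 (0.93) and Egfl8 (0.90). These values are a description over 13 animals after subtraction of group means. With quantile normalization they were 0.90 to 0.96. The probes most like Gnas A_64_P139412 belonged to Rn45s, a ribosomal RNA precursor (r 0.96), the ribosomal protein gene Rplp1 (0.95), the parathyroid hormone gene Pth (0.95), Picalm (0.95) and Bcl3 (0.94). With quantile normalization these were 0.26 to 0.53. The points in both cases share the array, and with it the array's percentile.

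In the wider pathway, a list of 93 further genes was described by the brightest probe of each, and 79 genes were tested. After adjustment 0 passed 0.05 in limma, and before it 7 of 79 (8.86%) had p under 0.05, 4 higher and 3 lower, beside 12.7% of all probes. The median log2 fold change over the 79 genes was -0.10, close to the -0.08 of all probes. The number past the unadjusted threshold was 2 of 6 for receptor desensitisation, 1 of 2 for the other cyclases, 1 of 12 for the other phosphodiesterases, 1 of 7 for the CREB family and 2 of 8 for TSH-regulated thyroid genes. It was 0 for the ligands (2 tested), the other G protein subunits (10), the other protein kinase A subunits and inhibitors (7), the kinase anchors (7), Epac and Rap1 (4), the Gq branch (8) and the cAMP-inducible early genes (6). The TSH subunits Tshb and Cga, which are made in the pituitary, were not above background on any array.

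The 10 genes of the list with the smallest p are given by their log2 fold changes in limma, and their adjusted p ran from 0.354 to 0.426. Crtc3, a CREB coactivator, had 0.56 (standard error 0.19) with its brightest probe, or 0.31 without controls 4 and 6, and 0.09 with its other probe. The phosphodiesterase Pde1b had 0.61 (standard error 0.24) and the deiodinase Dio1 had 0.47 (standard error 0.22). Of the receptor kinases, Grk6 had 0.25 with its brightest probe and 0.33 with its other, whereas Grk5 had -0.33 with its brightest probe and -0.04 and 0.19 with the others. The remaining 5 were negative, at -0.26 for Tg, the thyroglobulin gene, -0.30 for the phosphodiesterase Pde4a, -0.32 for the cyclase Adcy5, -0.24 for the regulatory subunit Prkar1b and -0.54 for the phospholipase Plcb2. In each of these 10 genes the ranges of the groups overlapped. Without controls 4 and 6 the values were nearer 0 in all 10, at 0.54 for Pde1b, 0.29 for Dio1, 0.20 for Grk6, -0.26 for Grk5, -0.14 for Tg, -0.20 for Pde4a, -0.23 for Adcy5, -0.13 for Prkar1b and -0.22 for Plcb2. In that setting 2 of the 79 genes had an unadjusted p under 0.05, beside 9.38% of all complete probes.

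**Figure D5:**
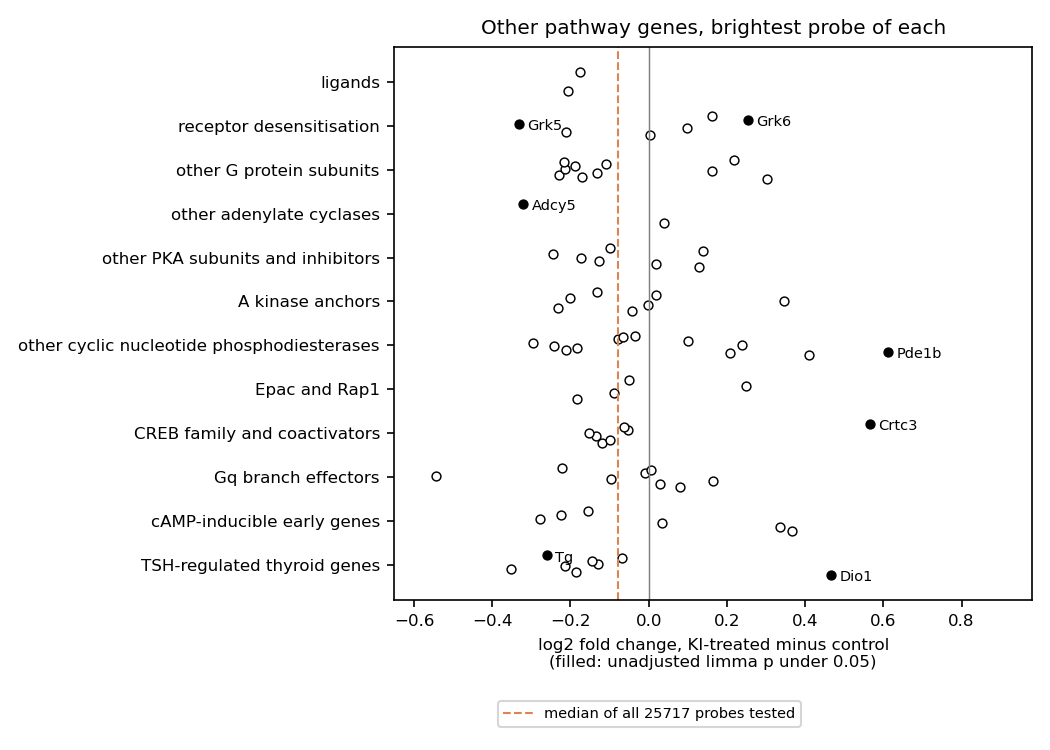
Log2 fold change (x axis, log2 units) of the 79 tested genes of the wider pathway, 1 point per gene for its brightest probe, in 12 lists, with points filled where the unadjusted limma p is under 0.05. The 7 filled points are Dio1 and Tg, Crtc3, Pde1b, Adcy5, Grk5 and Grk6, and most other points lie near the dashed median of all probes at -0.08.

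The promoters were searched for the cAMP response element, since cAMP acts on many genes through it. Promoters were RefSeq sequences of GRCr8 from 250 bases before to 50 bases after the start, and 7 of the 10 genes had one. Only the first listed sequence of each gene was used, so other starts, such as those of further Gnas first exons, were not searched. The full element TGACGTCA, on either strand, was in 0 of the 7 and in 1.91% of all 27457 promoters. Its core TGACG, which the full element contains, was in 4 of the 7, those of Gnas, Gnaq, Adcy9 and Prkaca, and in 22% of all promoters. In the list of 93, 3 of 73 promoters held the full element (Gnao1, Rap1b and Dusp1) and 21 of 73 the core (28.8%). These matches are a description of letters and were not compared with the expression values.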

How the data were processed

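Thyroid RNA of 6 KI-treated and 7 control animals was hybridised to 13 one-colour Agilent arrays, and groups and replicate numbers came from the sample labels. The authors deposited 1 scanner file per array, made with Agilent Feature Extraction (version 10.7.3.1), which gives the intensity of each spot after background subtraction, with no scaling across arrays. A second table deposited by the authors holds log2 values for these arrays. Its normalization is not given in the sources used here and it served as an alternative. Its order of probes follows the median spot signal. Columns belonging to samples outside the series numbered 0.

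From the scanner files, control spots and spots flagged as outliers were dropped, log2 of the processed signal was averaged over the spots of a probe, and the 75th percentile of the array over all 45598 probes was subtracted. Scaling by this percentile removes differences in overall brightness but not differences in the shape of the distribution. A probe was kept if 6 or more arrays had it well above background, and the 25717 kept were fitted on all 13 arrays by lmFit and eBayes (limma 3.58.1, R 4.3.3). The p-values were adjusted by Benjamini-Hochberg, and 0.05 was the threshold. For 67 of them at least 1 array gave no value, and these did not enter the counts over complete probes. Single probes were also tested with a two-sided exact permutation test that enumerated the 1716 splits into 6 and 7. Probe pairs were compared by Pearson and Spearman correlation after subtraction of group means with 100000 permutations. Figures were drawn with matplotlib 3.10.9 in Python 3.11.15. The precision is limited by the number of arrays. In simulated arrays of this comparison, 200 of 25650 probes were changed by known amounts, and limma found 0% of changes of 0.5 on the log2 scale, 69% of changes of 1 and 98% of changes of 2.

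Every probe of the 10 genes was described. Of the 93 further pathway genes, taken by their brightest probe, the 10 with the smallest unadjusted p were named, and the 5 gene-named probes most like Tshr and Gnas by Pearson r. The members and lists were chosen with earlier results of these data known. Alternatives were quantile normalization, other percentiles, normexp background correction (offset 50), the deposited table, other filters, slide, scan session or replicate number as a block, array weights, trended and robust variances, the methods' t-test, averaging of probes and leaving out arrays. Leaving out controls 4 and 6 together and taking the percentile over spots were chosen after seeing the data. The labels do not say whether the replicate numbers shared by the groups pair the animals, and the animals were taken as unpaired. Cortex arrays of the study were not analysed here, and 1 gene of the lists is not reported here.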

Additional observations from a re-analysis of the deposited data

Results flagged for a closer look

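Of the 40 groups formed by 20 tested probes and both treatments, 5 held an animal far from the rest by Dixon's ratio, the gap to the nearest animal divided by the range of the group. Chance alone would flag about 1 in 20 groups. The ratio was 0.70 for Tshr A_42_P794812 in control 4, whose level was -0.68 where the next control was at 0.23. It was 0.73 for Pde4d A_44_P1154821 in control 4, at -4.26 against -3.01 for the next control. Gnaq was flagged in both groups, in animals that shared slide 2. Its ratio was 0.64 for KI 3, at -2.93 against -3.32, and 0.58 for control 6, at -2.74 against -3.37. For Adcy3 the ratio was 0.67 in KI 1, at -3.22 against -2.74.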

How the results depend on the processing

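No probe of the 10 genes and no further pathway gene passed 0.05 after adjustment under any alternative run. Over all probes the count was 0 except with array weights, which gave 55 probes, of which 3 were above and 52 below the controls, and on leaving out 1 array, where it ran from 0 to 1 (1 probe without control 1 and 1 without control 2). The split of unadjusted calls, 1469 higher and 1802 lower, was 1823 and 1432 with quantile normalization, 1727 and 1071 with the percentile over probes above background on all arrays, 1757 and 1133 with the percentile over spots, 1166 and 3427 with normexp and the 75th percentile, 1885 and 1402 with normexp and quantiles, and 1886 and 1359 with the deposited values. Probe pairs past 0.05 were 5, with 3 under quantile normalization and 7 with slide means subtracted. Same-numbered animals correlated at -0.22 to 0.06. This cannot show whether the replicate numbers pair the animals, since paired animals need not correlate, and the labels do not say. With the replicate block 0 probes passed 0.05 and Adcy3 was at 0.0014.

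Fold changes near 0 turned sign, and the cause was not tested. With quantile normalization they were 0.018 for Adcy3, 0.054 for Pde4d A_44_P1102284, 0.0019 for Prkar1a A_64_P130139 and 0.0071 for Adcy6 A_43_P11576. The percentile over probes above background on all arrays gave 0.079, 0.086, 0.043 and 0.069 for Adcy3, Pde4d A_44_P1102284, Pde4d A_44_P1154821 and Adcy6 A_43_P11576, and the percentile over spots 0.065, 0.072, 0.029 and 0.055. Normexp with quantiles gave 0.016, 0.0017, 0.0042, 0.017 and 0.043 for Adcy6 A_43_P11576, Prkar1a A_64_P130139, Prkar1a A_42_P722564, Adcy3 and Pde4d A_44_P1102284. Normexp with the 75th percentile gave -0.064 for Pde8b, -0.035 for Pde4d A_44_P1159098, 0.012 for Pde4d A_44_P1102284 and -0.11 for Gnaq. The deposited values gave -0.0025 for Pde8b, 0.0063 for Pde4d A_44_P1154821, 0.028 for Adcy3, 0.035 for Adcy6 A_43_P11576, 0.015 and 0.031 for Prkar1a and 0.069 for Pde4d A_44_P1102284. Array weights gave 0.050 and 0.029 for Prkar1a, 0.26 for Pde4d A_44_P1102284, and 0.027 and -0.077 for Tshr. With scan session as a block Pde4d A_44_P1154821, Adcy3 and Pde8b were at 0.0047, 0.092 and -0.056, and with slide Pde8b, Adcy6 A_43_P11576 and Adcy3 at -0.018, 0.0056 and 0.065. Without controls 4 and 6, Tshr A_42_P794812 was at -0.14, Prkar1a A_64_P130139 at 0.13 and Pde4d A_44_P1102284 at 0.16. Averaged over its 4 probes, Gnas was at 0.054. With quantile normalization the r of Gnas A_64_P139412 was -0.23 with A_44_P378484 and -0.30 with A_44_P1370055, against 0.31 and 0.64 without it. That of the Prkar1a probes was -0.22, against 0.54. With slide means subtracted, r was -0.27 for Gnas A_44_P1370055 and A_44_P1081635 and 0.054 for Pde4d A_44_P1367371 and A_44_P1159098.

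On leaving out 1 array, the fold changes that turned sign ran from -0.11 to 0.083 for Adcy3, -0.076 to 0.062 for Adcy6 A_43_P11576, -0.089 to 0.12 for Pde4d A_44_P1102284, -0.26 to 0.026 for Pde4d A_44_P1154821, -0.033 to 0.22 for Pde4d A_44_P1159098, -0.076 to 0.24 for Pde8b, -0.18 to 0.0060 for Prkar1a A_64_P130139 and -0.14 to 0.077 for Tshr A_42_P794812. Probes near background are limited by their low signal.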
